A study of Mus musculus with 2 samples.

Results

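The 10 transcription factors described here set endothelial identity or answer to blood flow, and were followed in kidney endothelial barcodes of mice given cisplatin or saline. They are Klf2, Klf4, Sox17, Sox18, Sox7, Nr2f2, Erg, Ets1, Tcf15 and Gata2. They were chosen by name, and the 10 symbols matched 10 of the 32285 genes listed in each library. The study made 1 single-cell library from mice given cisplatin at 20 mg/kg and 1 from mice given saline, each made 72 h after treatment from the 10 kidneys of 5 males of the C57BL6/J strain that were 10 to 12 weeks old. Cisplatin is a platinum chemotherapy drug that injures kidney tubules. Kidneys were pooled within a condition, so neither library holds animals that can be told apart. Cells were captured on beads against CD31, a surface protein of all endothelium, and then on beads against podoplanin, and the submitters call the product lymphatic endothelial cells.

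An endothelial barcode had at least 500 unique molecular identifiers (UMIs, each standing for 1 captured transcript), at most 20% mitochondrial UMIs and at least 1 UMI of Pecam1, Cdh5, Egfl7 or Flt1. Such barcodes numbered 609 in the cisplatin library and 497 in the saline library. Each went to the capillary, glomerular or arterial gate by the marker list with the most UMIs, at least 2 and more than either other list, and the rest stayed ungated. No transcription factor described here is in any gate list. A level is given in CPM, the UMIs of a gene per 1000000 UMIs of all genes in the gate. With 1 library per treatment no test was possible and no p-value is given. A ratio of levels carries a 95% counting interval, which covers counting error only and not differences between mice. A gene counted as measured with at least 20 UMIs in both libraries together, and as higher or lower when its cisplatin to saline ratio was at least 1.5-fold away from 1 and the interval left out 1.

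KLF2 and KLF4 are zinc finger factors induced in endothelium by steady laminar flow. Flow signals pass through a kinase cascade to MEF2 proteins, which bind the Klf2 promoter, and both factors raise anticoagulant and vasodilator genes. SOX7, SOX17 and SOX18 form the SOXF group, needed for arterial fate and for lymphatic specification. NR2F2, also called COUP-TFII, holds venous and lymphatic identity by restraining Notch signalling. ERG and ETS1 are ETS factors, and GATA2 a zinc finger factor, that keep endothelial genes such as Cdh5 and Vwf on. TCF15, which pairs with MEOX2, belongs to fatty acid handling capillaries of heart and other tissues.

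RefSeq promoter windows of the GRCm38.p6 build, running from 250 bases before to 50 bases after a transcription start, were at hand for 5 of the 10 genes. Those of Klf2, Klf4 and Nr2f2 are shown because they are those of the flow-responsive pair and of the gene with the highest ratio in arterial barcodes. The windows lie at chr8:72318812-72319111 on the plus strand for Klf2, chr4:55532426-55532725 on the minus strand for Klf4 and chr7:70366697-70366996 on the minus strand for Nr2f2. They are written in the direction of transcription, and the capitals mark the one match to the MEF2 core, which is CTA, any 4 bases and then TAG.
Klf2: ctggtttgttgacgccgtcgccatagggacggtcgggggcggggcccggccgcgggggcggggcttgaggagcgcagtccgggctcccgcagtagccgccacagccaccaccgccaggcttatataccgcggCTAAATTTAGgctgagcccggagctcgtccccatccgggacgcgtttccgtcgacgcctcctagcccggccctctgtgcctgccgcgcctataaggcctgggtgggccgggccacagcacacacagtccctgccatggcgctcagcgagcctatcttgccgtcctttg
Klf4: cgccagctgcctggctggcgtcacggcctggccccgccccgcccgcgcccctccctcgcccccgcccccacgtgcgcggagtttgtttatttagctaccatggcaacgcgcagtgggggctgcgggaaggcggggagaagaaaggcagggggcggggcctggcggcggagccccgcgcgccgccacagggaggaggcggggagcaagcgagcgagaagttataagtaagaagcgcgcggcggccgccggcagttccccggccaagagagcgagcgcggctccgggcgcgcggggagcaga
Nr2f2: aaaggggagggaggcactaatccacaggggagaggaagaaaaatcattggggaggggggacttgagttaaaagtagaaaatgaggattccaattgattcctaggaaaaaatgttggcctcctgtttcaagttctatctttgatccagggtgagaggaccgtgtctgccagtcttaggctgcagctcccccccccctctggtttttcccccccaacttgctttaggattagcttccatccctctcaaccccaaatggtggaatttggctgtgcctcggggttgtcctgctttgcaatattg
The Klf2 match began 118 bases before the start, and 3.69% of 32851 mouse promoter windows of this length held the palindromic motif. Also searched, on both strands, were the shear stress element GAGACC, present in 16.4% of all windows, and the KLF box CACCC, present in 57.5%. The Klf4 window held none of the 3 motifs. Klf2 and Nr2f2 each held 1 KLF box and no shear stress element. A match is a string of letters in the window and was not tested as a binding site.

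No chromosome holds more than 1 of the genes except chromosome 2, with Sox18 and Tcf15. On GRCm38, Klf2 spans chr8:72319033-72321656 and Klf4 chr4:55527143-55532466, on the plus and minus strand. Of the SOXF genes, Sox17 lies at chr1:4490931-4497354, Sox18 at chr2:181669836-181671640 and Sox7 at chr14:63943673-63950732. Nr2f2 lies at chr7:70351944-70366735, Erg at chr16:95359169-95586593, Ets1 at chr9:32636221-32757820, Tcf15 at chr2:152143561-152149097 and Gata2 at chr6:88193891-88207032. Counts are per gene, and isoforms cannot be told apart.

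The libraries differed in ways that touch every result below. The cisplatin library held 19994105 UMIs and the saline library 5879496. Of the barcodes with at least 500 UMIs, 1712 of 3441 in the cisplatin library had more than 20% mitochondrial UMIs and were left out, against 3 of 630 in the saline library. No endothelial barcode sequence occurred in both libraries. Of the 7 lymphatic markers, 3 that define lymphatic endothelium were at or near 0. Prox1 had 0 UMIs in cisplatin and 2 in saline capillary barcodes, 5 and 0 in glomerular barcodes, and 0 in arterial barcodes of both libraries. Lyve1 had 1 UMI in cisplatin and 6 in saline glomerular barcodes and 0 in the capillary and arterial gates, while Mmrn1 had 0 UMIs in all 3 gates of both libraries. Reln had 3 UMIs and Ccl21a 1 UMI over the 3 gates, all in cisplatin barcodes. Flt4, a VEGF receptor that fenestrated capillaries also carry, had 33 UMIs in cisplatin and 15 in saline capillary, 37 and 2 in glomerular and 4 and 14 in arterial barcodes, and Pdpn, which podocytes also carry, 9 and 1, 11 and 0, and 1 and 0. The whole list stood at 93.0 CPM in cisplatin and 60.4 in saline capillary, 97.3 and 343 in glomerular and 50.5 and 23.3 in arterial barcodes, and 2 or more of its UMIs occurred in 6 and 0, 10 and 1, and 2 and 1 barcodes of these gates. The barcodes are therefore described as blood vessel gates and not as lymphatic endothelium.

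Klf2 met neither limit in capillary barcodes and was lower after cisplatin in arterial ones. Arterial barcodes held 142 Klf2 UMIs in the cisplatin library and 1047 in the saline library, or 896 and 1740 CPM. The ratio was 0.515 with an interval of 0.429 to 0.614. In capillary barcodes Klf2 had 376 UMIs in the cisplatin library and 229 in the saline library, levels of 833 and 769 CPM with a ratio of 1.08 (0.916 to 1.28). Over alternative settings the capillary ratio ran from 0.941 to 1.99, and without barcodes with at least 2 UMIs of other cell markers it was called higher (1.99, 1.5 to 2.62). Glomerular barcodes had 344 and 23 Klf2 UMIs, levels of 609 CPM after cisplatin and 986 after saline, and a ratio of 0.617 (0.405 to 0.987) that only just left out 1. The deepest saline glomerular barcode had 2782 UMIs, while 26 cisplatin ones with at least 3000 UMIs held 525475 of that gate's 565012 UMIs. Each glomerular ratio thus compares barcodes of unlike depth. The glomerular call was lost in 9 of the 14 alternative settings that gave a call, and the arterial one when barcodes with at least 2 UMIs of other cell markers were left out (0.836) or free RNA was subtracted (0.673). Over 15 settings the arterial ratio ran from 0.0615 to 0.836, all on the lower side. The arterial level of Klf2 was 1.08 times the capillary one in the cisplatin library (0.881 to 1.31) and 2.26 times in the saline library (1.96 to 2.62). The difference between these quotients was not tested. In the cisplatin library the arterial and capillary levels had overlapping intervals and the glomerular level lay below both, while in the saline library the arterial level lay above the other gates, whose intervals overlapped.

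Klf4, the companion of Klf2 in the flow response, was lower after cisplatin in both capillary and arterial barcodes. The capillary level was 215 CPM in cisplatin (97 UMIs) and 426 in saline (127 UMIs), a ratio of 0.504 (0.383 to 0.661). The arterial level was 492 CPM in cisplatin (78 UMIs) and 981 in saline (590 UMIs), a ratio of 0.502 (0.391 to 0.636). Both gates thus showed about the same quotient. The arterial level stood 2.29 times above the capillary one in the cisplatin library and 2.30 times in the saline library. The arterial UMIs were concentrated in the cisplatin library, where 9 of 34 barcodes held Klf4 and 3 of these held 66 of the 78 UMIs. In saline 101 of 146 arterial barcodes held Klf4, and the top 3 had 80 of the 590 UMIs. The arterial quotient is thus one of pooled levels and does not show an even change across barcodes. Glomerular barcodes held 137 Klf4 UMIs after cisplatin and 10 after saline, and the ratio of 0.565 had an interval of 0.298 to 1.21. A single cisplatin barcode of 116215 UMIs supplied 65 of those 137, and a single capillary barcode of 49904 UMIs supplied 28 of the 97. The glomerular one held 868 UMIs of endothelial markers not used in the gate and 47 of pericyte and smooth muscle markers. The capillary call was lost when barcodes with at least 2 UMIs of other cell markers were left out (0.815), after thinning to 500 UMIs (0.805), over endothelial marker UMIs (0.683) and in barcodes of 500 to 3000 UMIs (0.611), and the arterial call in the first of these (0.684). The arterial ratio ran from 0 to 0.684 over the settings.

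**Figure D1:**
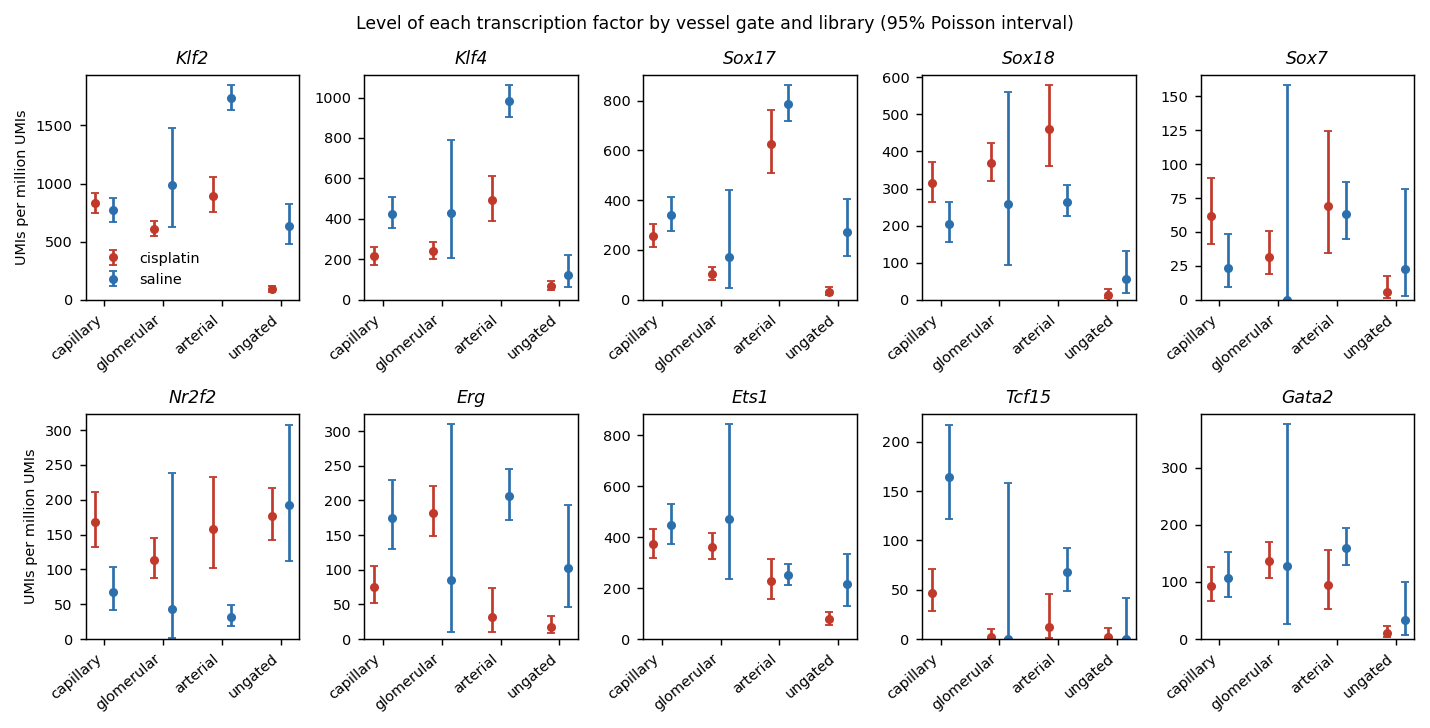
Level of each transcription factor in CPM, UMIs of the gene per 1000000 UMIs of the gate (vertical axis, from 0), for the 3 vessel gates and the ungated barcodes, with cisplatin in red and saline in blue; points are 1 library each and bars are 95% Poisson intervals. Klf2 stood at 896 CPM in cisplatin and 1740 in saline arterial barcodes, while Nr2f2 stood at 158 and 31.6.

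The depth of the barcodes bears on the Klf4 values. Among capillary barcodes with at least 3000 UMIs (39 in cisplatin, 17 in saline), Klf4 stood at 227 CPM (181 to 282) in cisplatin and 803 (628 to 1011) in saline. Among those with at least 500 and under 1000 UMIs (39 and 141 barcodes), it stood at 293 (127 to 577) in cisplatin and 162 (94.6 to 260) in saline, and the intervals overlapped. Between these limits it stood at 101 (37.1 to 220) in cisplatin and 367 (260 to 504) in saline. The lower capillary Klf4 was thus seen only in barcodes of 1000 UMIs or more, and under 1000 the cisplatin value was the higher one. Sox17 was likewise lower in the deep barcodes, with 288 CPM (235 to 348) in cisplatin and 547 (404 to 723) in saline at 3000 UMIs or more. The 17 deep saline barcodes held 72 of the 127 saline capillary Klf4 UMIs. Their capillary list stood at 5109 CPM, against 15398 in saline barcodes under 1000 UMIs and 8094 in the deep cisplatin ones. Whether the deep barcodes of the libraries are of 1 kind was not tested. Klf2 had intervals that overlapped between the libraries in each of the 3 depth classes of the capillary gate. The same held for Sox18, Sox7, Nr2f2 and Erg, which were called over the whole gate. At 3000 UMIs or more Erg stood at 68.5 CPM (44.3 to 101) in cisplatin and 156 (85.4 to 262) in saline. Nr2f2 stood at 178 (137 to 227) and 89.2 (38.5 to 176) there. Tcf15 had intervals apart only in that class, at 43.8 (25.1 to 71.2) and 167 (93.7 to 276). Overlap does not show that levels were equal.

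Sox17, the SOXF factor of arterial endothelium, was highest in the arterial gate of both libraries, with capillary barcodes next and glomerular ones last, though the intervals of those gates overlapped in the saline library. The arterial level was 624 CPM in cisplatin (99 UMIs) and 788 in saline (474 UMIs), 2.45 times the capillary level in cisplatin (1.86 to 3.24) and 2.32 times in saline (1.87 to 2.91). Cisplatin over saline gave 0.793 (0.632 to 0.986) in arterial and 0.751 (0.570 to 0.991) in capillary barcodes, both short of 1.5-fold. These ratios depended on the settings. The arterial one ran from 0 to 1.40 and was called lower in 5 of 14 settings that gave a call, and the capillary one ran from 0.462 to 1.62 and was called lower in 4 of 14. Capillary Sox17 rested heavily on 1 barcode, which held 48 of 115 cisplatin UMIs. Glomerular barcodes had 58 UMIs in cisplatin and 4 in saline, too few in saline to place the ratio of 0.598 (0.222 to 2.27).

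Sox18 had the opposite sign to Klf4 in the same gates. In capillary barcodes it had 142 UMIs in the cisplatin library and 61 in the saline library, 314 and 205 CPM, with a ratio of 1.54 (1.13 to 2.11). In arterial barcodes it had 73 and 159 UMIs, 460 CPM in cisplatin and 264 in saline, with a ratio of 1.74 (1.30 to 2.31). These arterial UMIs were concentrated: 3 cisplatin barcodes held 60 of the 73. Without the 3 deepest arterial barcodes of each library the ratio was 0.95 (0.595 to 1.46), and with every barcode given equal weight it was 0.527. The direction of Sox18 in arterial barcodes therefore rests on a few deep barcodes, while the capillary ratio stayed between 1.26 and 2.44 over 15 alternative settings. In 5 of these the capillary call was lost, among them the one without the 3 deepest barcodes (1.44).

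Sox7, the third SOXF gene, was sparse. It had 28 UMIs in 17 cisplatin capillary barcodes and 7 UMIs in 7 saline ones, a ratio of 2.64 (1.13 to 7.15). The call was lost at a minimum of 1000 UMIs per barcode (2.55), with the vessel gate at 1 UMI (2.03) and without the 3 deepest barcodes (2.17), as the intervals then held 1. Arterial barcodes had 11 and 38 UMIs, 69.4 CPM in cisplatin and 63.2 in saline, a ratio of 1.10 (0.506 to 2.19). Glomerular barcodes had 18 UMIs in cisplatin and 0 in saline, where 3 UMIs, the limit that a count of 0 allows, would be 129 CPM, so no fold is given. The 3 SOXF genes did not share a direction in capillary barcodes: Sox7 and Sox18 were higher and Sox17 met neither limit.

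Nr2f2, the venous factor, was higher after cisplatin in capillary and arterial barcodes. The capillary level was 168 CPM in cisplatin (76 UMIs) and 67.2 in saline (20 UMIs), a ratio of 2.51 (1.52 to 4.33). The arterial level was 158 CPM in cisplatin (25 UMIs) and 31.6 in saline (19 UMIs), a ratio of 4.99 (2.64 to 9.59), the highest of the 10 genes in that gate. Glomerular barcodes had 64 UMIs in cisplatin and 1 in saline, and the ratio of 2.64 ran from 0.457 to 106. Of the 64, 11 lay in 1 barcode of 91183 UMIs that held 1 UMI of the endothelial markers not used in the gate. Its UMIs are part of the 565012 by which every cisplatin glomerular level was divided. The setting without the 3 deepest barcodes removed it, but together with those of 116215 and 37144 UMIs. The effect of this barcode alone on those levels was not tested. The glomerular call of Klf2, whose interval ended at 0.987, was made with this barcode included.

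Endothelium is not the only source of Nr2f2 in these libraries. Proximal tubule barcodes, defined by at least 3 UMIs of tubule markers and none of the endothelial gate genes, held 177 Nr2f2 CPM in cisplatin and 191 in saline. Free RNA, read from barcodes with 1 to 100 UMIs, held 145 CPM in cisplatin and 217 in saline. The cisplatin levels in capillary, arterial and ungated barcodes (168, 158 and 176 CPM) lay near those of the tubule and of free RNA, whereas the saline levels in capillary and arterial barcodes lay well under them. With the estimated free RNA subtracted, the ratio was 3.18 (1.79 to 6.01) in capillary and 6.06 (2.95 to 12.6) in arterial barcodes. How much Nr2f2 other cells in the same barcodes added was not tested. Mural markers, those of pericytes and smooth muscle, had 508 UMIs in cisplatin arterial barcodes and 29 in saline ones. Of the 25 cisplatin arterial Nr2f2 UMIs, 20 lay in the 8 barcodes with at least 2 mural UMIs, 12 of them in 1 barcode with 27 mural UMIs. The part of mural RNA in the arterial ratio was not tested beyond this count.

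**Figure D2:**
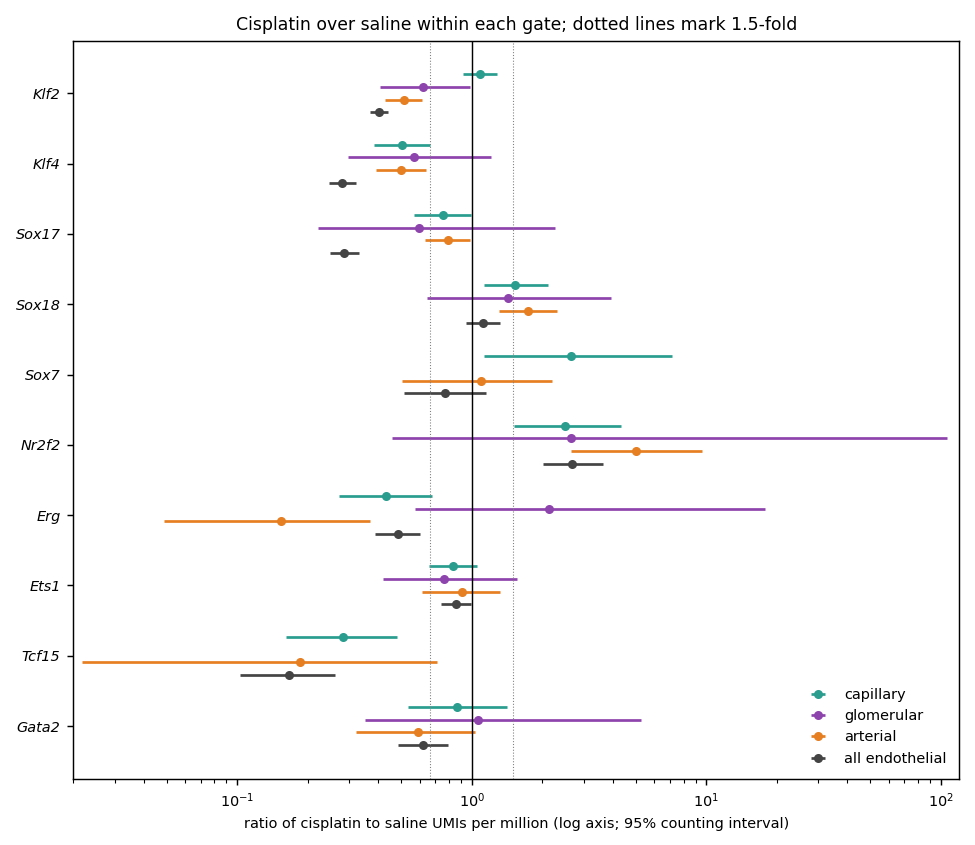
Ratio of cisplatin to saline level (horizontal log axis) for each transcription factor in capillary, glomerular and arterial barcodes and in all endothelial barcodes, with 95% counting intervals as bars and dotted lines at 1.5-fold either way; unmeasured pairs are left out. Erg and Nr2f2 lie farthest apart in the arterial gate, at 0.153 and 4.99.

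Erg, the ETS factor that guards endothelial identity, was lower after cisplatin in capillary and arterial barcodes. Arterial barcodes had 5 Erg UMIs in the cisplatin library and 124 in the saline library, 31.5 and 206 CPM, and a ratio of 0.153 (0.0488 to 0.367). Capillary barcodes had 34 and 52 UMIs, 75.3 CPM in cisplatin and 175 in saline, and a ratio of 0.431 (0.271 to 0.677). The glomerular gate stood apart within the cisplatin library, with 182 CPM (103 UMIs), 2.42 times the capillary level there (1.63 to 3.68). The saline library had only 2 glomerular Erg UMIs, so whether that order existed without cisplatin was not detectable at this depth. The capillary and arterial ratios of Erg stayed below 1 in each alternative that gave a value, at 0.272 to 0.585 and 0 to 0.258. The capillary interval held 1 after thinning (0.396) and in barcodes of 500 to 3000 UMIs (0.569).

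Ets1, which shares DNA targets with Erg, met neither limit in any gate. Its ratio was 0.833 (0.660 to 1.05) in capillary, 0.765 (0.419 to 1.56) in glomerular and 0.911 (0.615 to 1.32) in arterial barcodes, and each interval held 1. Capillary barcodes had 168 UMIs in cisplatin and 133 in saline, 372 and 447 CPM. The arterial level was 0.610 times the capillary one in cisplatin (0.413 to 0.879) and 0.558 times in saline (0.439 to 0.710), so both libraries had Ets1 lower in arterial than in capillary barcodes. A ratio inside these intervals does not show that Ets1 was equal in the libraries.

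Gata2, a factor of endothelial and blood lineages, also met neither limit in any gate. Arterial barcodes had 15 UMIs in cisplatin and 96 in saline, 94.6 and 160 CPM, with a ratio of 0.593 (0.319 to 1.03). That ratio ran from 0 to 1.11 over alternative settings and was called lower in 3 of the 13 that gave a call. The capillary ratio was 0.865 (0.533 to 1.42) from 42 UMIs in cisplatin and 32 in saline. The glomerular ratio of 1.06 rested on 77 and 3 UMIs and ran from 0.349 to 5.25.

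Tcf15 was highest in the capillary gate of both libraries, with an interval that overlapped the arterial one in cisplatin, and was lower there after cisplatin. Capillary barcodes of the cisplatin library held 21 UMIs in 16 barcodes and those of the saline library 49 UMIs in 36, and the level was 46.5 CPM in cisplatin and 165 in saline, with a ratio of 0.283 (0.161 to 0.480). Arterial barcodes had 2 UMIs in cisplatin and 41 in saline, a ratio of 0.185 (0.0217 to 0.713). Glomerular barcodes had 1 UMI in cisplatin and 0 in saline. Within the saline library the arterial level was 0.414 times the capillary one (0.267 to 0.640). Of the 10 genes, Tcf15 had the lowest ratio in the capillary gate. Without barcodes with at least 2 UMIs of other cell markers the ratio was 0.847 in capillary and 0.346 in arterial barcodes, and both calls were lost.

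Counted together, 3 of the 10 genes were higher and 3 lower in capillary barcodes, and 4 were neither. Over the 5831 genes measured in that gate, 10.6% were higher and 11.4% lower by the same rule. The median log2 ratio was -0.24 for the 10 genes and -0.04 for all measured genes. In arterial barcodes 2 were higher (Sox18, Nr2f2) and 4 lower (Klf2, Klf4, Erg, Tcf15), against 7.14% higher and 13.1% lower among 5627 genes, with medians of -0.52 and -0.14. In glomerular barcodes 8 of the 10 were measured, of which 1 was lower (Klf2) and none higher. There 2.69% of 5130 genes were higher and 5.34% lower, with medians of -0.29 and -0.17, and the 22 saline barcodes with 23315 UMIs limit what could be seen. With so few genes the counts describe the group and do not set it apart from other genes.

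Pooling the gates changed several of these ratios. Over all endothelial barcodes 1 of the 10 genes was higher (Nr2f2, 2.68) and 6 were lower, against 22.2% higher and 12.6% lower among 10501 genes. The 6 were Klf2, Klf4, Sox17, Erg, Tcf15 and Gata2. Gata2, at 0.622 (0.487 to 0.795), kept the call in 5 of 11 alternatives that gave one, with ratios from 0.204 to 1.13. The gates differed in their share of endothelial UMIs: arterial barcodes gave 9.40% in cisplatin and 59.5% in saline, glomerular barcodes 33.5% and 2.31%, and ungated barcodes 30.3% and 8.74%. When the cisplatin gate levels were combined with the saline shares, Sox17 had a ratio of 0.757 in place of the pooled 0.286, Klf4 0.503 in place of 0.281 and Klf2 0.597 in place of 0.402. Erg moved the other way, to 0.252 in place of 0.484. Sox18 gave 1.65 in place of 1.12. Pooled values of these genes therefore mix the level within a vessel type with the make-up of the barcodes.

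Ungated cisplatin barcodes had lower levels of these factors than each vessel gate, except for Nr2f2 and Tcf15, and for Erg with an interval that overlapped the arterial one. Klf2 stood at 92.0 CPM in the 415 ungated cisplatin barcodes and 633 in the 96 saline ones, and Sox17 at 31.3 and 271. Endothelial markers not used in the gate stood at 867 CPM in cisplatin and 3009 in saline ungated barcodes, and proximal tubule markers at 7551 and 8856. Nr2f2 was close in both, at 176 CPM in cisplatin and 192 in saline.

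The arterial gate of the cisplatin library does not hold 1 kind of barcode. Of its 34 barcodes, 21 had fewer than 3000 UMIs, and the levels of endothelial markers not used in the gate were 2374 CPM at 500 to under 1000 UMIs and 2216 at 1000 to under 3000, against 8094 and 7285 in the saline library. Proximal tubule markers stood at 9759 and 10026 CPM in those cisplatin classes, against 468 and 1310 in saline. The 13 cisplatin barcodes with at least 3000 UMIs had endothelial markers at 5621 CPM, against 5991 in the 65 saline ones, and they held 140 of the 142 Klf2 UMIs, 77 of the 78 Klf4 UMIs and each of the 99 Sox17 and 73 Sox18 UMIs. Arterial results from the cisplatin library thus rest almost wholly on 13 barcodes. The same 13 barcodes held mural markers at 3772 CPM (498 UMIs), against 4.19 CPM (2 UMIs) in the saline ones, and proximal tubule markers at 1151 CPM, against 105. The part of these cells' RNA in the arterial ratios was not tested.

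Among these deep arterial barcodes, which differ in mural markers as given above, the order of the libraries stayed the same for the genes called in the arterial gate. Klf2 stood at 1061 CPM (892 to 1251) in cisplatin and 1874 (1753 to 2001) in saline. Klf4 stood at 583 (460 to 729) in cisplatin and 1068 (977 to 1165) in saline. Erg stood at 37.9 (12.3 to 88.4) in cisplatin and 201 (163 to 245) in saline. The intervals did not overlap for these 3 genes, nor for Sox18 at 553 (433 to 695) and 226 (186 to 273) or Nr2f2 at 159 (98.5 to 243) and 12.6 (4.61 to 27.3). They overlapped for Sox17 at 750 (610 to 913) in cisplatin and 854 (773 to 941) in saline, and for Tcf15, Ets1, Gata2 and Sox7. The deep cisplatin counts were concentrated: the top 3 barcodes of each gene held 99 of 140 Klf2, 66 of 77 Klf4 and 60 of 73 Sox18 UMIs. The intervals take no account of such spread between barcodes. At 1000 to under 3000 UMIs Sox18 went the other way, at 0 CPM (0 to 195) in cisplatin and 449 (332 to 594) in saline. The other called genes kept their order there.

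The order of the gates was read from the levels with their intervals. Sox18 stood at 460 CPM in arterial, 368 in glomerular and 314 in capillary cisplatin barcodes, and at 264, 257 and 205 in saline ones, with neighbours that overlapped in both libraries. Klf4 was highest in arterial barcodes of both libraries, and its glomerular and capillary levels overlapped in both. Gata2 stood at 136, 94.6 and 93.0 CPM in glomerular, arterial and capillary cisplatin barcodes, again with overlapping neighbours. Nr2f2 had its highest value in ungated barcodes of both libraries, with an interval that overlapped the capillary one in cisplatin. Ungated cisplatin barcodes had the lowest level of Klf2, Klf4, Sox17, Sox18, Sox7, Erg, Ets1 and Gata2.

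**Figure D3:**
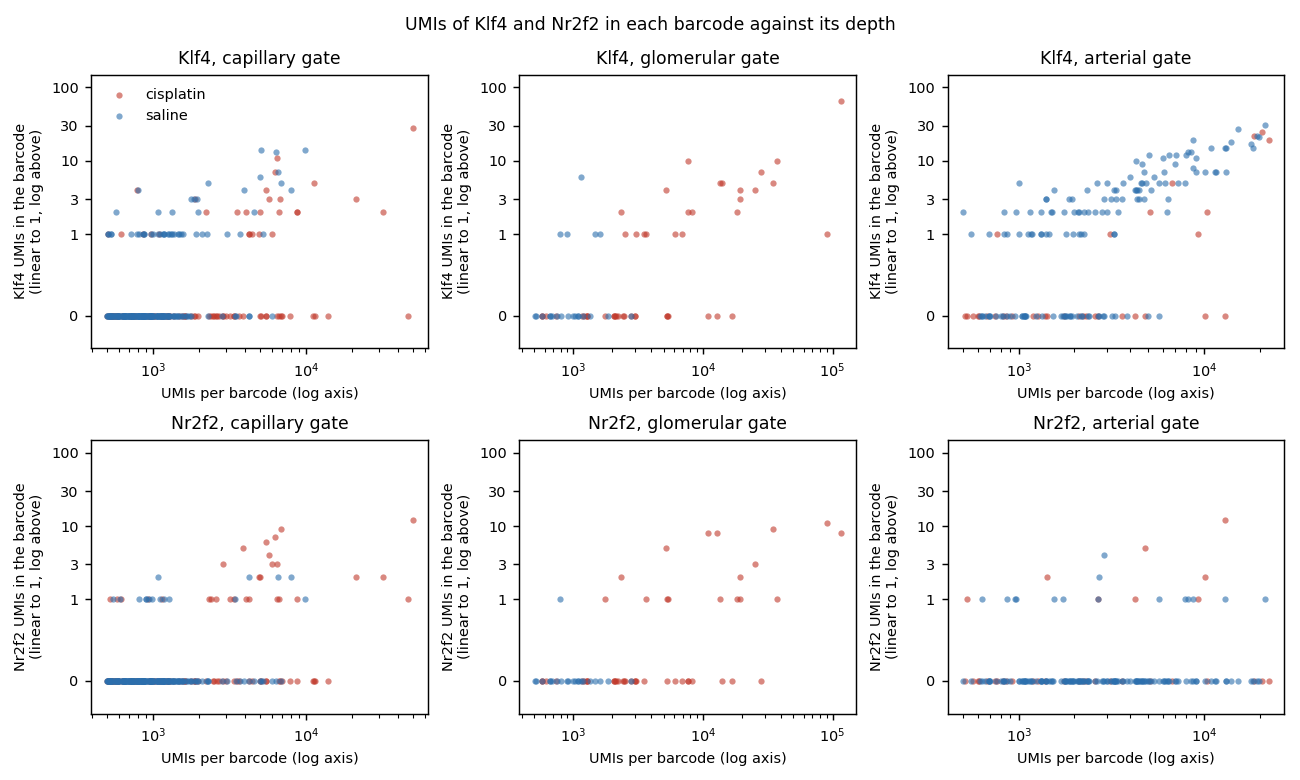
UMIs of Klf4 (top row) and Nr2f2 (bottom row) in each barcode (vertical axis, linear to 1 and log above) against the UMIs of the barcode (log axis) in the 3 gates; each point is 1 barcode, cisplatin in red and saline in blue. Saline arterial barcodes hold Klf4 at all depths, while cisplatin arterial Klf4 lies almost wholly in barcodes of 3000 UMIs or more; the cisplatin capillary point of 49904 UMIs holds 28 Klf4 UMIs.

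Markers of other cells moved with treatment in each gate, and their part in the ratios was not tested. In capillary barcodes the 8 distal and collecting duct markers had 761 UMIs in cisplatin and 56 in saline, and the 10 proximal tubule markers 779 and 279. In glomerular barcodes the 7 podocyte markers had 711 UMIs in cisplatin and 1 in saline, and the 9 mural markers 446 and 0. Endothelial markers not used in the gate were lower after cisplatin, at 5461 and 7408 CPM in capillary, 6129 and 10165 in glomerular and 5059 and 6278 in arterial barcodes. Divided by these endothelial marker UMIs in place of all UMIs, the capillary ratio was 1.47 for Klf2, 1.02 for Sox17, 0.683 for Klf4, 2.08 for Sox18, 3.40 for Nr2f2, 0.585 for Erg and 0.383 for Tcf15. The estimated free RNA share of UMIs was 18.1% in cisplatin and 7.43% in saline capillary barcodes, and 27.5% and 2.64% in arterial ones.

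Shares of barcodes with a UMI were read after thinning every barcode to 500 UMIs, beside proximal tubule barcodes that should lack endothelial factors. The median depth before thinning was 1612 UMIs in cisplatin and 882 in saline capillary barcodes, 2167 and 2492 in arterial ones, and 698 and 646 in tubule ones. Klf2 was found in 29.5% of 112 cisplatin and 25.3% of 233 saline capillary barcodes after thinning (55.4% and 44.6% before), against 3.25% and 5.05% of tubule barcodes. Arterial barcodes had Klf2 in 17.6% of cisplatin and 47.3% of saline barcodes (32.4% and 82.2% before thinning). Klf4 was in 0 of 34 thinned cisplatin arterial barcodes, which allows up to 8.82% (3 barcodes of 34), and in 30.1% of 146 saline ones (26.5% and 69.2% before).

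Nr2f2 was about as frequent in tubule barcodes as in cisplatin capillary ones. It was found in 9.82% of cisplatin and 1.72% of saline capillary barcodes after thinning (25.9% and 6.87% before), against 9.42% and 11.1% of tubule barcodes. The saline capillary share lay under that of tubule barcodes, and no difference is read from these shares. Tcf15 was in 0.893% of cisplatin and 8.15% of saline capillary barcodes after thinning (14.3% and 15.5% before), against 0 of 924 cisplatin tubule barcodes, which allows up to 0.325% (3 of 924), and 1.01% of saline ones. Erg was in 3.57% of cisplatin and 8.15% of saline capillary barcodes (16.1% and 17.2% before), against 0.649% and 1.01% of tubule barcodes.

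**Figure D4:**
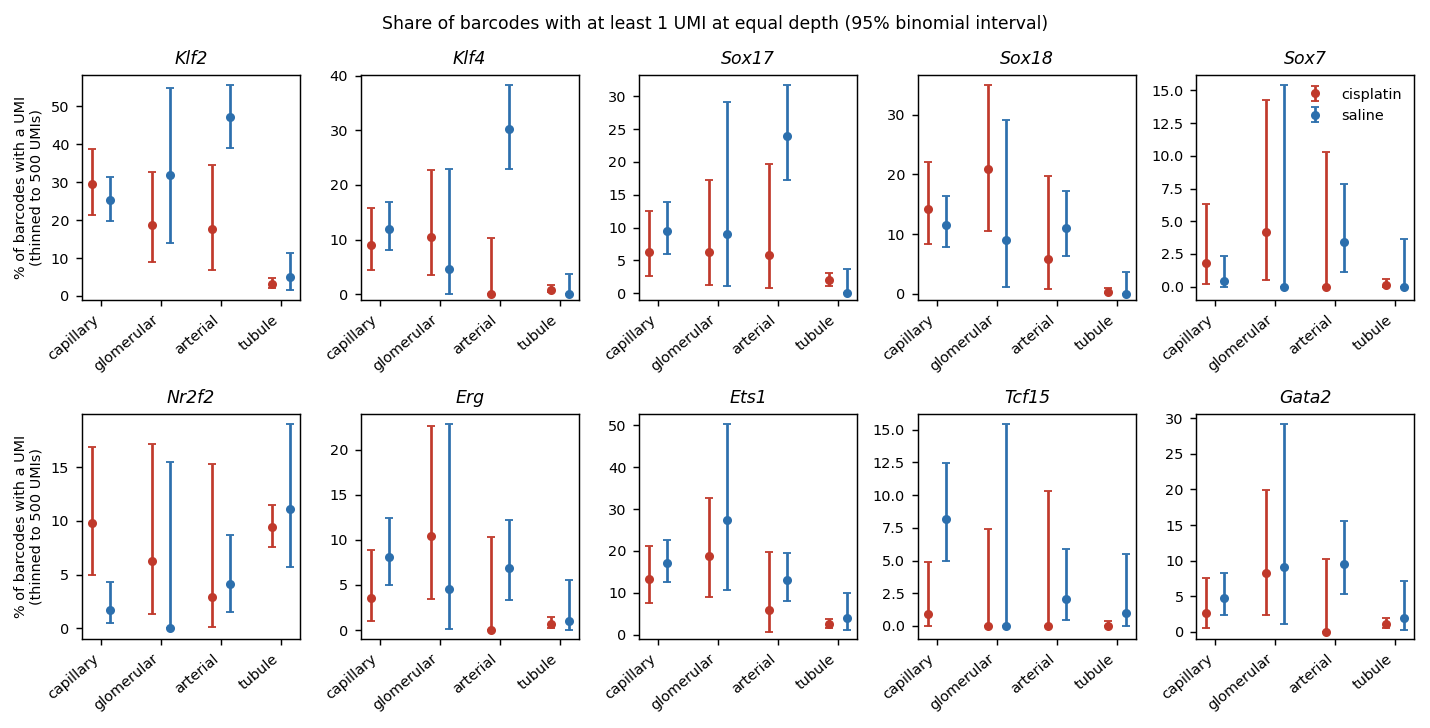
Percent of barcodes with at least 1 UMI of each transcription factor after thinning every barcode to 500 UMIs (vertical axis), in the 3 gates and in proximal tubule barcodes, cisplatin in red and saline in blue, with exact 95% binomial intervals. Klf4 was found in none of the 34 cisplatin and 30.1% of the 146 saline arterial barcodes, and Nr2f2 in 9.42% and 11.1% of tubule barcodes.

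The kinase route that carries flow to Klf2 and Klf4 was read from 12 genes, of which 10 were measured in capillary barcodes. Of these, 1 was lower and none higher, against 11.4% lower and 10.6% higher among all genes in that gate. It was Mef2c, a MEF2 factor, with 95 UMIs in cisplatin and 218 in saline, 210 and 732 CPM and a ratio of 0.287 (0.223 to 0.367). Heg1, a junction receptor upstream of the kinases, had a capillary ratio of 0.698 (0.539 to 0.903) and Mef2a one of 0.717 (0.552 to 0.932). In glomerular barcodes 2 of 9 measured were lower, Mef2a at 0.321 (0.199 to 0.549) and Mef2c at 0.307 (0.175 to 0.580). The arterial gate differed: Mef2c stood at 334 CPM in cisplatin and 332 in saline there, Heg1 was higher at 1.58 (1.30 to 1.92), and the CCM complex genes Krit1 (0.265, 0.0525 to 0.827) and Pdcd10 (0.373, 0.181 to 0.693) were lower, so 1 of 9 was higher and 2 lower. Among all genes 2.69% were higher and 5.34% lower in glomerular barcodes, and 7.14% and 13.1% in arterial ones. With so few genes these counts do not set the route apart.

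Of the genes that KLF2 and KLF4 are known to control, 14 were measured in capillary barcodes. There 2 were higher and 3 lower, near the shares of all genes (10.6% and 11.4%), with a median log2 ratio of -0.23 against -0.04. The higher ones were Aqp1, a water channel that tubules also carry, with 232 UMIs in cisplatin and 8 in saline (19.1, 9.54 to 44.8), and Vcam1, a leukocyte adhesion receptor (3.02, 1.60 to 6.20). Asap2 was lower at 0.516 (0.338 to 0.783), as were Cav1 and Tie1. In arterial barcodes 3 of 15 were higher and 5 lower, against 7.14% and 13.1% of all genes, with a median of -0.31 against -0.14. Thbd, the thrombin receptor thrombomodulin and a classic KLF2 target, had 62 UMIs in cisplatin and 499 in saline there, 391 and 829 CPM, with a ratio of 0.472 (0.356 to 0.615), and Adam15 one of 0.399 (0.256 to 0.60). Nos3, the endothelial nitric oxide synthase and another such target, went the other way at 1.81 (1.15 to 2.80), as did Cyp1b1 with 20 and 3 UMIs (25.3, 7.5 to 133). Nos3 was named after its value was seen. In glomerular barcodes 4 of 11 were lower and none higher, against 5.34% and 2.69% of all genes, with a median of -0.77 against -0.17, led by Edn1, the vasoconstrictor endothelin, at 0.134 (0.0590 to 0.343). The list was not split into genes that KLF2 and KLF4 raise and genes that they restrain. Its counts and medians therefore have no expected direction and were not read as KLF activity.

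Of the arterial genes linked to the SOXF factors, 3 of 9 measured were lower in capillary, 2 of 9 in glomerular and 3 of 10 in arterial barcodes, against 11.4%, 5.34% and 13.1% of all genes. None was higher, against 10.6%, 2.69% and 7.14% of all genes, so that with so few genes a count of 0 is near the background. Their median log2 ratios were -0.40, -0.58 and -0.37, against -0.04, -0.17 and -0.14 for all genes. Nrp1, a VEGF co-receptor, was lower in all 3 gates, at 390 CPM in cisplatin and 1038 in saline capillary barcodes (0.376, 0.310 to 0.453), and with ratios of 0.339 (0.253 to 0.463) in glomerular and 0.567 (0.394 to 0.796) in arterial barcodes. Efnb2, the arterial ephrin, was lower in capillary (0.392, 0.287 to 0.533) and glomerular barcodes (0.504, 0.292 to 0.941). Unc5b, a guidance receptor, had a capillary ratio of 0.287 (0.122 to 0.626). Notch1 (0.514, 0.309 to 0.814) and Acvrl1 (0.513, 0.333 to 0.764), receptors for Notch ligands and BMP9, were lower in arterial barcodes. Gja4 and Gja5 of this list also help define the arterial gate, so its counts partly reflect the gate.

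Of the venous genes linked to Nr2f2, 5 were measured in capillary barcodes, too few to set against the shares of all genes. None was higher and 2 were lower: Aplnr, the apelin receptor, with 5 UMIs in cisplatin and 26 in saline (0.127, 0.0380 to 0.336), and Vwf with 2 and 28 (0.0471, 0.00544 to 0.187). Arterial barcodes had 2 of 5 higher, Vwf at 2.74 (1.67 to 4.44) and the semaphorin receptor Nrp2 at 3.16 (1.22 to 7.99), and Emcn lower at 0.304 (0.207 to 0.431). Emcn was also lower in glomerular barcodes, at 0.583 (0.437 to 0.793), as 1 of 3 measured. Among all genes 10.6% were higher and 11.4% lower in capillary, 7.14% and 13.1% in arterial and 2.69% and 5.34% in glomerular barcodes. These counts too rest on too few genes for a comparison.

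Endothelial genes linked to Erg, Ets1 and Gata2 had 2 higher and 3 lower of 12 in capillary barcodes, 2 higher and 5 lower of 12 in arterial and 6 lower of 11 in glomerular ones, with medians of -0.30, -0.59 and -0.79. Among all genes 10.6% were higher and 11.4% lower in capillary, 7.14% and 13.1% in arterial and 2.69% and 5.34% in glomerular barcodes, with medians of -0.04, -0.14 and -0.17. Cdh5, the cadherin of endothelial junctions and an ERG target, was lower in all 3 gates: 0.562 (0.470 to 0.672) in capillary, 0.413 (0.281 to 0.627) in glomerular and 0.505 (0.386 to 0.651) in arterial barcodes. Cdh5, Pecam1, Egfl7 and Flt1 are all in this list and are the genes that admit a barcode. Their levels, and so the counts and medians of the list, partly reflect the gate. Pecam1 had a ratio of 0.303 (0.211 to 0.448) in glomerular barcodes. Kdr, the main VEGF receptor, was lower in capillary barcodes at 0.555 (0.478 to 0.644), where the small surface protein gene Ecscr was higher at 2.08 (1.51 to 2.92). In glomerular barcodes Ecscr was lower, at 0.272 (0.139 to 0.594).

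The list of other endothelial transcription factors held 36 genes. Gata5 and Tbx3 among them also help define the glomerular gate, so the counts partly reflect the gate. Of 27 measured in capillary barcodes 3 were higher and 8 lower, against 10.6% and 11.4% of all genes, with a median log2 ratio of -0.44 against -0.04. The intervals farthest from 1 were those of Tcf4, an E protein (0.501, 0.428 to 0.587), Mecom (0.388, 0.260 to 0.574) and the ETS gene Ets2 (0.471, 0.337 to 0.655). In arterial barcodes 3 of 27 were higher and 8 lower, against 7.14% and 13.1% of all genes, with a median of -0.51 against -0.14, led by the ETS genes Fli1 (0.292, 0.137 to 0.554) and Ets2 (0.345, 0.168 to 0.639) and by Klf13 (0.508, 0.335 to 0.746). In glomerular barcodes 2 of 26 were higher and 5 lower, against 2.69% and 5.34%, with a median of -0.54 against -0.17. Among these, Mecom (0.272, 0.139 to 0.594) and Klf13 (0.311, 0.181 to 0.574) were lower, and Klf9, a glucocorticoid-induced KLF, had 272 UMIs in cisplatin and 2 in saline (5.61, 1.54 to 46.6).

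**Figure D5:**
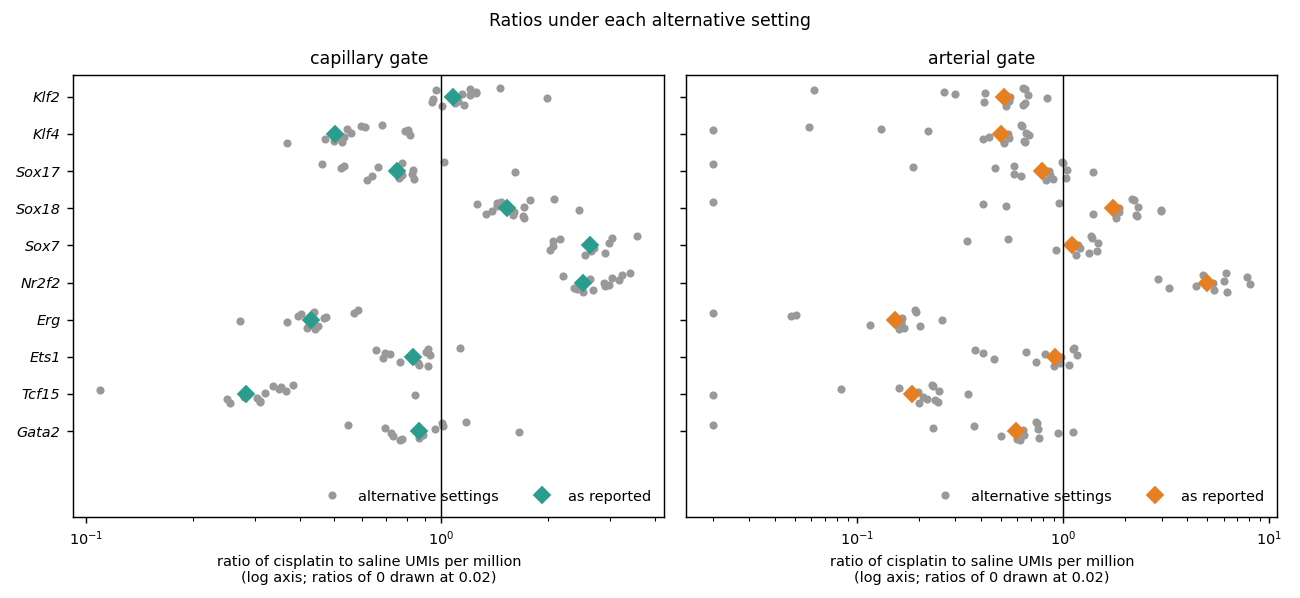
Ratio of cisplatin to saline level (log axis) for each transcription factor in capillary (left) and arterial barcodes (right) as reported (coloured diamonds) and under the alternative settings (grey points, up to 15 per gene; a ratio of 0 is drawn at 0.02). Capillary Klf4, Erg and Tcf15 stay below 1 and Sox18, Sox7 and Nr2f2 above 1, while arterial Sox18 runs from 0 to 3.0.

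The genes whose pattern lay nearest to each factor were found among 1850 candidates over the 6 gate and library profiles, by the root mean square distance of centred log2 levels. Klf4 lay nearest to Ccnd2, a cyclin gene, at 0.20, and then to Tulp4 and Ehd2. Klf2 lay nearest to Rexo2 (0.17), Gpx1 and Plscr4. Sox17 was nearest to Cst3 (0.27), Lmo2 and Emp3, and Sox18 to Phb2 (0.16), Rnh1 and Myl12a. For Nr2f2 the nearest were Neat1 (0.29), a nuclear long non-coding RNA, Ivns1abp and Mfge8. Ets1 had the closest neighbour of all, Ptpra at 0.07, before Sumo3 and Tnfaip1, and Gata2 lay near Wdr83os (0.10), Atp5e and Ndufb11. Erg was nearest to Glrx3 (0.34), Ndufs5 and Cdc42ep1. No likeness is given for Sox7 and Tcf15, whose 0 UMIs in saline glomerular barcodes leave that value to the added 10 CPM. The same value rests on 1 UMI for Nr2f2, 2 for Erg, 3 for Gata2 and 4 for Sox17. The neighbours of these genes thus depend on a poorly counted level, and how far was not tested. All are likenesses over 6 profiles from 2 libraries and say nothing of shared control.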

How the data were processed

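Single-cell 3' RNA libraries of kidney cells, 1 from cisplatin-treated and 1 from saline-treated mice, were analysed. The authors deposited matrices of all barcodes holding UMI counts as whole numbers, not normalized. Cell Ranger 6.0.1 and mm10 are named per the submitters' processing notes, while the matrices carry version 4, per the file headers. UMIs were summed per gate and library and divided by all UMIs of the gate. Ratios carry exact (Clopper-Pearson) conditional binomial 95% intervals, levels exact Poisson intervals and shares exact (Clopper-Pearson) binomial intervals, all for counting error only. The limit given beside a share of 0 is 3 counts of the total. Computation used Python 3.11.15, numpy 2.4.6, scipy 1.17.1 and pandas 2.3.3, and the intervals were tested on simulated data. Log2 ratios had 0.5 UMI added per library. No doublet caller was run. Barcodes are not replicates, and with 1 library per group no test was run.

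Depth was 19994105 UMIs in the cisplatin and 5879496 in the saline library. After the filters, capillary barcodes numbered 112 in cisplatin and 233 in saline, glomerular 48 and 22, arterial 34 and 146, and ungated 415 and 96. The capillary list was Plvap, Igfbp3, Npr3, Fabp4, Gpihbp1, Rgcc and Inhbb, the glomerular list Ehd3, Sost, Plat, Gata5 and Tbx3, and the arterial list Gja5, Gja4, Bmx, Sema3g, Fbln5, Fbln2, Ltbp4, Eln and Cxcl12. Gja4, Gja5, Gata5 and Tbx3 are also in linked gene lists.

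The 10 genes and all lists were chosen with earlier results of these data known. Named were the 10 genes, up to 3 genes per linked list and gate whose interval bound nearest 1 lay farthest from 1, and the 3 nearest genes by profile except for Sox7 and Tcf15. Cav1, Tie1 and Nos3, named beside counts, were named after their values were seen. Profiles were log2 of CPM plus 10, centred per gene, for genes with at least 50 UMIs in each gate. Free RNA was subtracted in 1 alternative, with its share estimated from tubule markers. Promoter windows come from RefSeq and gene positions from the GRCm38 annotation.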

Additional observations from a re-analysis of the deposited data

Results flagged for a closer look

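Vwf and Ecscr, from the lists of genes linked to Erg, Ets1 and Gata2, stood out because they were higher after cisplatin in one gate and lower in another. Vwf, the clotting factor stored by large-vessel endothelium, had a ratio of 0.0471 (0.00544 to 0.187) in capillary barcodes, from 2 UMIs in cisplatin and 28 in saline, and of 2.74 (1.67 to 4.44) in arterial barcodes, from 31 and 43 UMIs. Ecscr had a ratio of 2.08 (1.51 to 2.92) in capillary barcodes, from 158 UMIs in cisplatin and 50 in saline, and of 0.272 (0.139 to 0.594) in glomerular barcodes, from 66 and 10 UMIs. The difference between gates was not tested, since each gate has 1 library per treatment.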

How the results depend on the processing

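No paired analysis was possible because each treatment has 1 library. Of 499 ratios of the 10 genes under 15 alternative settings, 372 stayed inside the counting interval of the reported ratio and 120 left it. The other 7 belonged to genes called higher or lower and changed sides. Ratios reported as neither were not counted as changing sides, though some crossed 1. Arterial Sox17, reported at 0.793, was above 1 in 4 of 15 alternatives. Of the settings, 11 were planned and 4 were chosen after seeing the data. Of the 4, the first left out the 3 deepest barcodes and the next kept those of 500 to 3000 UMIs. The others left out barcodes with 1% or more other cell markers or used the endothelial marker denominator. Sox18 in arterial barcodes was 0.527 with equal weight per barcode, 0.409 thinned to 500 UMIs, 0.95 without the 3 deepest barcodes and 0 at 500 to 3000 UMIs. Without barcodes with 2 UMIs of other cell markers, the ratios over all endothelial barcodes were 1.01 for Sox17 and 1.13 for Gata2. Glomerular Klf2 was 1.02 over endothelial marker UMIs. The count of genes lower in glomerular barcodes, 1 as reported, was 0 at a mitochondrial limit of 10%, with 2 endothelial UMIs, with the vessel gate at 1 or 3 UMIs, without barcodes with 2 UMIs or 1% of other cell markers, when thinned, and over endothelial marker UMIs, where 1 gene was higher. Genes higher in capillary barcodes, 3 as reported, numbered 1 with the gate at 1 UMI or without the 3 deepest barcodes and 0 when thinned or at 500 to 3000 UMIs. Genes lower there, 3 as reported, numbered 1 when thinned or without barcodes with 2 other-cell UMIs. Genes higher in arterial barcodes, 2 as reported, numbered 1 with the gate at 1 UMI, the first 4 genes of each list, without 2 other-cell UMIs or without the 3 deepest, and 0 when thinned or at 500 to 3000 UMIs. Genes lower there, 4 as reported, numbered 1 without 2 other-cell UMIs. Over all endothelial barcodes 2 were higher, against 1, at a mitochondrial limit of 10%, with 2 endothelial UMIs, without 2 other-cell UMIs and over endothelial marker UMIs, and 2 were lower, against 6, without 2 other-cell UMIs. That last setting leaves 30 cisplatin and 178 saline capillary, 7 and 18 glomerular, and 7 and 97 arterial barcodes, so fewer genes reach 20 UMIs. Equal weight gives no interval and so no count. Thinning leaves too few UMIs for most genes.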
